A study of Danio rerio with 1324 samples.

Results

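The cell-cycle and DNA replication genes are 40 zebrafish gene symbols that were picked by function, from the cyclins that open the cycle to the proteins of chromosome segregation. By symbol, 39 of the 40 were found in the deposited tables; incenp matched no identifier. As mcm6 and rrm2 each stand for 2 identifiers, the list holds 41 of the 31916 gene identifiers of each table, and 1 of them, BIRC5 in the tables, is birc5a. A cell was called mitotic when it held reads of 5 or more of 10 genes of the list, top2a, mki67, cdk1, ccna2, ccnb1, aurkb, plk1, bub1, birc5a and tpx2. The word names this count and not a phase of the cycle.

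Each sample was 1 pancreatic beta-cell of a Tg(ins:BB1.0L) zebrafish, the Betabow line, in which the insulin promoter drives red fluorescence; cells were sorted by that color and sequenced from full-length cDNA. The ages run through 1, 3, 4, 6, 9, 10, 12, 13 and 14 months post-fertilization (mpf) and 45 days post-fertilization (dpf), all fed normally, with further 4 mpf pools that were fed 3 times a day (3TD) or by intermittent feeding (IF). The study calls 3, 4 and 6 mpf Adolescent, and 10, 12 and 14 mpf Adult. A pool here means the cells of 1 age and cohort. The cells of a pool share fish and dissection, save that the 3 mpf and 6 mpf pools each join 2 sets collected on different days, and pools, not cells, were taken as the replicates.

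The cell cycle is driven by cyclin-dependent kinases, which bind D and E cyclins before DNA replication, and A and B cyclins in the phases that follow. Replication needs a licensed origin, the MCM helicase and the sliding clamp PCNA, while division needs the Aurora and Polo kinases, spindle motors and the anaphase-promoting complex. Beta-cells of fish and mammals divide mostly when young, and most adult beta-cells rest outside the cycle.

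The tables hold 1014 of the 1324 cells that are labelled. All 30 cells of the second 1 mpf deposit (the new batch) matched 1 cell each of the first: Pearson's r across 23854 genes was 0.972 to 0.996 within such a pair and at most 0.766 between any others. Their read counts differed by about as much as sampling noise (chi-square per degree of freedom 0.966 to 1.04, against 20.1 or more with the next most similar cell). They were therefore counted as 1 sample, which leaves 984 distinct cells, 87 of them at 1 mpf. Median depth per pool lay between 274026 and 1162067 reads a cell, and the C1 pool of 3 mpf, made on a microfluidic chip, has 13 cells. Insulin took a median of 54.6% of the TPM (transcript counts scaled by gene length and to a fixed sum in each cell) at 1 mpf and 56.4% to 77.8% in the later pools of normally fed fish. A median of 4722 genes was detected per cell at 1 mpf, 3482 at 45 dpf and 2030 to 3641 in the other pools, so shares of cells that were compared between ages are also given after thinning every cell to 20000 reads without insulin.

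Most of the list was rarely read in these cells. Of the 41 identifiers, 30 had reads in under 5% of the 984 cells, and 3 (gmnn, pcna and ccnd2a) in over 20%. The median over the list was 1.93% of cells, against 3.76% over the 24100 genes with any read. The rarest was cdk4, a kinase partner of the D cyclins, with reads in 4 of 984 cells, followed by kif11, the spindle motor Eg5, and the checkpoint kinase gene bub1 with 6 cells each, and the motor gene kif23 with 7.

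pcna, ccne1, ccne2 and ccnd1 were read in a larger share of cells at 1 mpf than at any other age. Detection was wider there in general, with a median of 4722 genes per cell, against 3641 or fewer at other ages. By mean TPM, 26.7% of 13673 genes had all 10 later pools below the first 1 mpf pool. How many of all genes had their largest share at 1 mpf was not counted. The shares alone thus do not set these genes apart from other genes. pcna, the sliding clamp of replication, was read in 64 of 87 cells (73.6%, 95% Clopper-Pearson interval 63% to 82.4%) at 1 mpf, in 43 of 74 (58.1%, 46.1% to 69.5%) at 45 dpf, and in 0% to 41.3% of cells of the 10 later pools of normally fed fish (median 20.7%). Among the later pools the share was highest at 10 mpf (38 of 92 cells), followed by 34% at 13 mpf and 33.3% at 14 mpf, with intervals that overlap one another. After thinning, the shares were 59.8% at 1 mpf, 56.3% at 45 dpf and 0% to 39.1% later. At an even depth 1 mpf and 45 dpf thus lay close together, and both stayed above the later pools. These intervals, like all others given for shares, cover counting error only.

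By mean level pcna followed another order, since few cells carry much of it. It averaged 0 to 56.02 TPM in the later pools (median 17.9 TPM), against 77.4 TPM at 1 mpf, and 227 TPM at 45 dpf. The 45 dpf mean rested on its mitotic cells: these 6 of 74 cells held 67.9% of the summed pcna, and the other 68 averaged 79.3 TPM. At 14 mpf 1 mitotic cell held 72.9% of the pcna of the pool, and the mean was 14.7 TPM without it, against 53.2 TPM with it. At 1 mpf the only mitotic cell held 17.8%, and pcna averaged 64.4 TPM over the other cells.

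ccne2, a cyclin E that activates Cdk2 at the start of replication, separated 1 mpf most clearly. It averaged 0.0419 to 4.38 TPM in the 10 later pools (median 1.38 TPM), against 19.96 TPM at 1 mpf. Its share of cells was 2.33% to 17.4% in the later pools, against 40.2% (35 of 87, interval 29.9% to 51.3%) at 1 mpf, and thinned 0% to 7.61% against 35.6%. The 45 dpf pool lay within the later range by share, with 9 of 74 cells (12.2%), and above it by mean, at 5.15 TPM, of which 72.8% stood in the mitotic cells.

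The other cyclin E and cyclin D1 genes had a similar order of shares. ccne1 averaged 0.0434 to 5.98 TPM in the later pools, against 7.93 TPM at 1 mpf, and its share of cells was 1.67% to 15.4% against 25.3%, and thinned 0% to 10.2% against 17.2%. ccnd1, the cyclin D that growth signals induce, averaged 0.0102 to 10.9 TPM in the later pools, against 10.71 TPM at 1 mpf; the later pools thus overlapped 1 mpf in mean level, through 10 mpf, while their shares (2% to 22.8%) stayed under its 41.4%, also thinned (0% to 20.7%, against 31.03%). cdk2, the kinase partner of cyclin E, averaged 0 to 3.45 TPM in the later pools, against 4.74 TPM at 1 mpf, and was read in 0% to 6.52% of cells against 12.6%, or thinned in 0% to 4.505% against 8.05%. Unlike the cyclin genes, cdk2 was not highest at 1 mpf. The 45 dpf pool averaged 9.61 TPM of it, with reads in 11 of 74 cells, against 11 of 87 cells at 1 mpf. Without its mitotic cells the 45 dpf mean of cdk2 was 4.08 TPM.

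**Figure D1:**
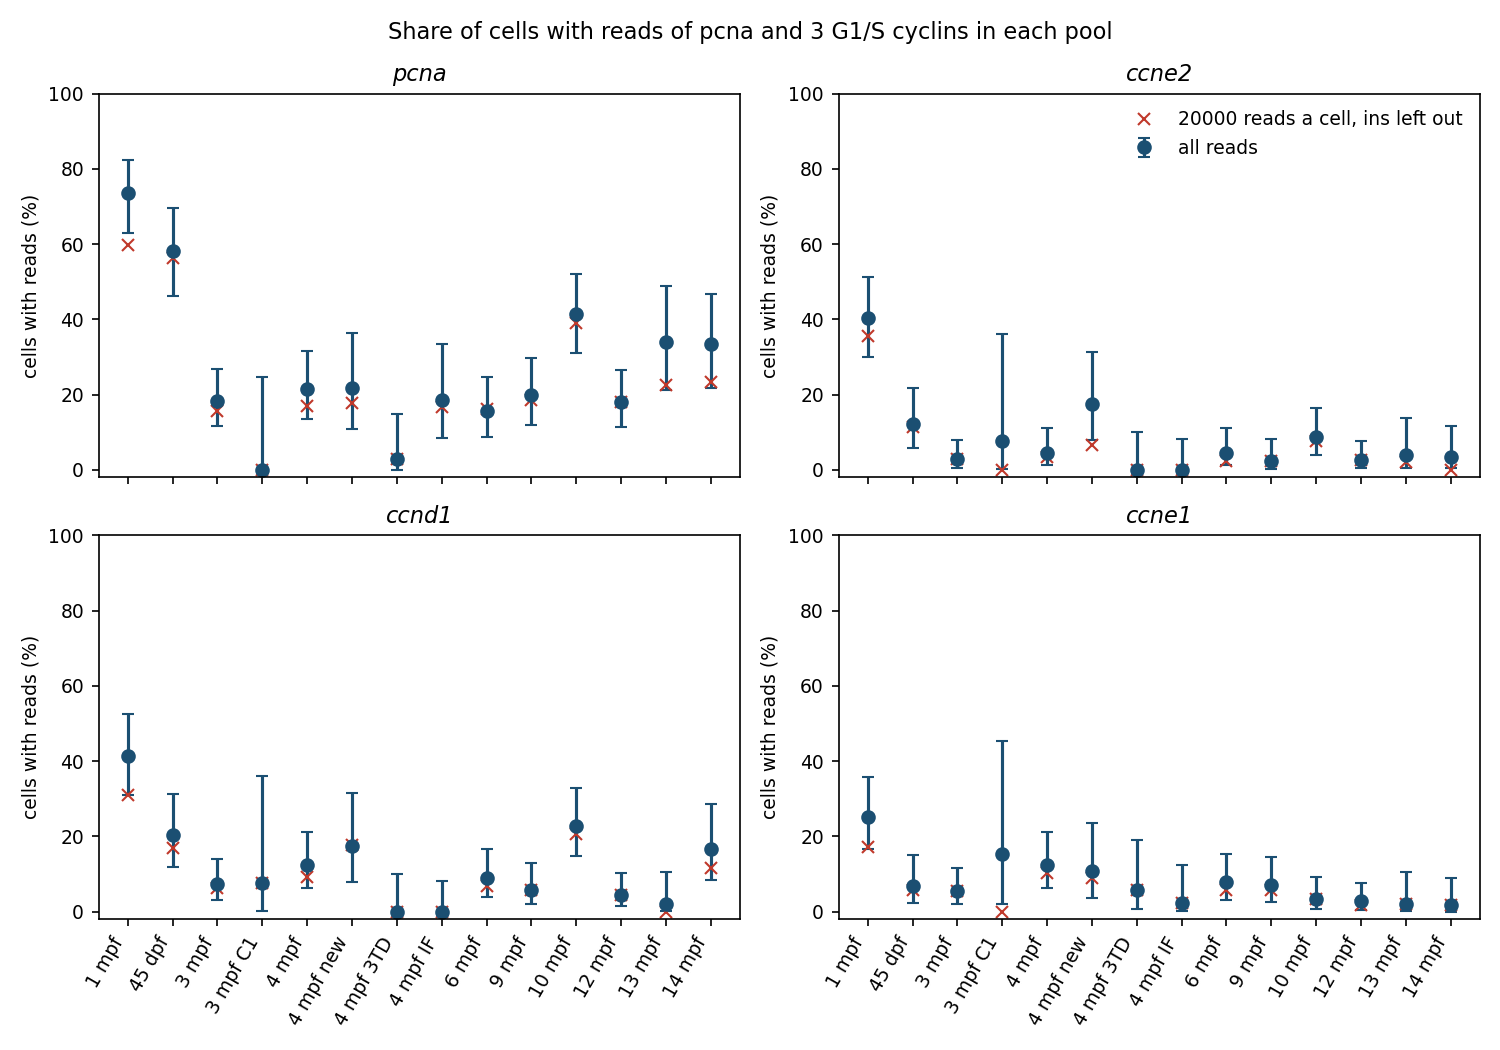
Share of cells with reads (percent, vertical axis) of pcna, ccne2, ccnd1 and ccne1 in each pool, in the order of age, with exact 95% intervals; crosses give the share after thinning to 20000 reads a cell without insulin. For each of the 4 genes the 1 mpf share (73.6%, 40.2%, 41.4% and 25.3%) is the highest of its panel.

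Several of these messages could be counted per cell. Of the 4 genes pcna, ccne1, ccne2 and ccnd1, a choice made after their values were seen, 2 or more were read in 54 of 87 cells (62.1%) at 1 mpf and in 19 of 74 (25.7%) at 45 dpf. In the later pools of normally fed fish it was 0% to 12.0% of cells, the highest being 11 of 92 cells at 10 mpf. After thinning it was 42.5% at 1 mpf, 22.5% at 45 dpf and 10.9% at 10 mpf. These counts follow the shares of the single genes, and whether the genes met in 1 cell more often than those shares give was not tested. In the 30 cells deposited again and the 57 others of 1 mpf, pcna had reads in 76.7% and 71.9%, ccne2 in 40% and 40.4%, ccne1 in 16.7% and 29.8%, and ccnd1 in 50% and 36.8%.

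By the study's record of collection dates, 12 mpf and 1 mpf cells were collected together. The study's methods place the 13 mpf cells on a plate with the new 1 mpf batch. As the new deposit repeats 30 cells of the first, it is not known from which collection these cells came, and a shared plate is not established for them. Set beside the first 1 mpf pool, 12 mpf had 15.6 TPM of pcna, against 77.4, and 1.22 TPM of ccne2, against 19.96. Set beside the new 1 mpf deposit, 13 mpf had 23.4 TPM of pcna, against 59.19 TPM, and 1.48 TPM of ccne2, against 19.03. Of the identifiers with a mean of at least 1 TPM in either pool, 16 of 17 were lower at 12 mpf (median log2 difference of log2(TPM + 1) -1.03, over all genes -0.65) and 11 of 15 at 13 mpf (median -1.32, over all genes -0.88). Over all genes, 75.3% were lower at 12 mpf and 79.5% at 13 mpf in the same pairs. Each of these is a comparison of single pools and has no test.

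Together they can be fitted, with the recorded collection as a block. In that limma fit, added after seeing the data, the 12 mpf pool stood against the first 1 mpf pool and the 13 mpf pool against the new deposit. This leaves each gene 1 residual degree of freedom before the spread is pooled over genes. Of 11609 genes 6.56% were lower and 0.388% higher, and of 15 identifiers of the list 3 were lower and 0 higher. They were ccne2 (-3.13, SE 0.59, adjusted p = 0.0131), ccnd1 (-3.16, SE 0.61, adjusted p = 0.0137) and pcna (-1.77, SE 0.47, adjusted p = 0.0451), with a median of -0.75 over all genes. ccne1 stood at -2.09 (SE 0.60, adjusted p = 0.0545). As both 1 mpf pools hold the same 30 cells, the 2 blocks are not separate collections at 1 mpf, and these p-values are too small.

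The replicated tests asked which of these differences exceed the spread between pools. Counts summed over the cells of a pool were fitted with edgeR's quasi-likelihood test and Benjamini-Hochberg adjustment over all genes tested, with 6 training pools of 3 to 14 mpf against the 1 mpf pool. Of 18477 genes, 3 were lower (0.0162%) and 0 higher (0.0%) in the later pools, and of the 40 identifiers tested none was called; 1 was lower at an unadjusted p under 0.05. This was ccne2, with a log2 fold change of -3.12 (SE 1.19, adjusted p = 0.809), and DESeq2, which called 180 genes higher (0.974%) and 37 lower (0.2%), also called 0 of the list. The median log2 fold change was 0.29 over the list and 0.14 over all genes, and it was -0.51 over the list without the 4 mpf pool, whose mitotic cells are described below. The fold of pcna was -0.54 (SE 0.72, adjusted p = 0.9986), and that of ccnd2a 1.497 (SE 0.87, adjusted p = 0.9986).

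On pool means of TPM, on the scale log2(TPM + 1), limma set 10 later pools against both 1 mpf deposits. It called 6 of 13673 genes higher (0.0439%) and 509 lower (3.72%), with a median of -0.61 over all genes. Of 24 identifiers of the list that passed the filter, 2 were called lower and 0 higher: ccne2, at -3.12 (SE 0.59, adjusted p = 0.00691, and -2.51 relative to the median of all genes), and mcm6 ENSDARG00000033231, a gene of the MCM helicase, at -1.13 (SE 0.22, adjusted p = 0.00843). That mcm6 identifier passed the filter (1 TPM or more in 2 pools) through the 1 mpf deposits alone. Its lower later means were thus set by the filter, and its p-value carries no weight. The mcm6 call rests on 1 mpf means of 1.31 and 1.33 TPM, as none of the later pools exceeded 0.185 TPM. These are not separate observations, for in the first deposit 2 of the 30 shared cells had reads and gave a mean of 2.89 TPM, against 0.476 TPM in the 57 other cells, and the call was lost with the collection as a block (adjusted p = 0.0909 by limma). When log2(TPM + 1) was averaged over cells instead, 11 of the 24 were lower where 46.6% of all genes were (0.132% were higher), and with a pseudocount of 0.1 it was mcm6 alone, where 1.14% of genes were lower and 0.0731% higher. How reads divide between the 2 mcm6 identifiers is uncertain.

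That fit takes the 1 mpf deposits as 2 pools although they share cells. With each 1 mpf cell counted once, as 1 pool against 10, limma called 0 genes higher (0.0%), 19 of 13367 lower (0.142%) and 0 of 22 identifiers of the list, of which 2 were lower at an unadjusted p under 0.05. ccne2 then stood at -3.16 (SE 0.85, unadjusted p = 0.0016, adjusted p = 0.223), pcna at -2.11 (SE 1.39, adjusted p = 0.718) and ccnd1 at -1.79 (SE 0.99, adjusted p = 0.693). With the shared cells in 1 deposit only, so that 57 and 30 cells make the 1 mpf pools, 331 of 13681 genes were lower (2.42%), and of 23 identifiers ccne2 alone was called (-3.15, SE 0.60, adjusted p = 0.00865). The size of the ccne2 difference thus stayed near 3 on the log2 scale in these fits on log2(TPM + 1), and its adjusted p depended on whether 1 mpf counts as 1 sample or 2, and on the pseudocount (adjusted p = 0.111 by limma at 0.1). Both fits with the shared cells rearranged were added after the shared cells were found. Whether the 57 and the 30 cells came from separate collections is not known. If they did not, the p-values of the fit that takes them as 2 pools are too small. How many of all genes had an unadjusted p under 0.05 in the comparisons with 1 mpf is not given here. Such counts for the list are thus not read as a result about it.

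**Figure D2:**
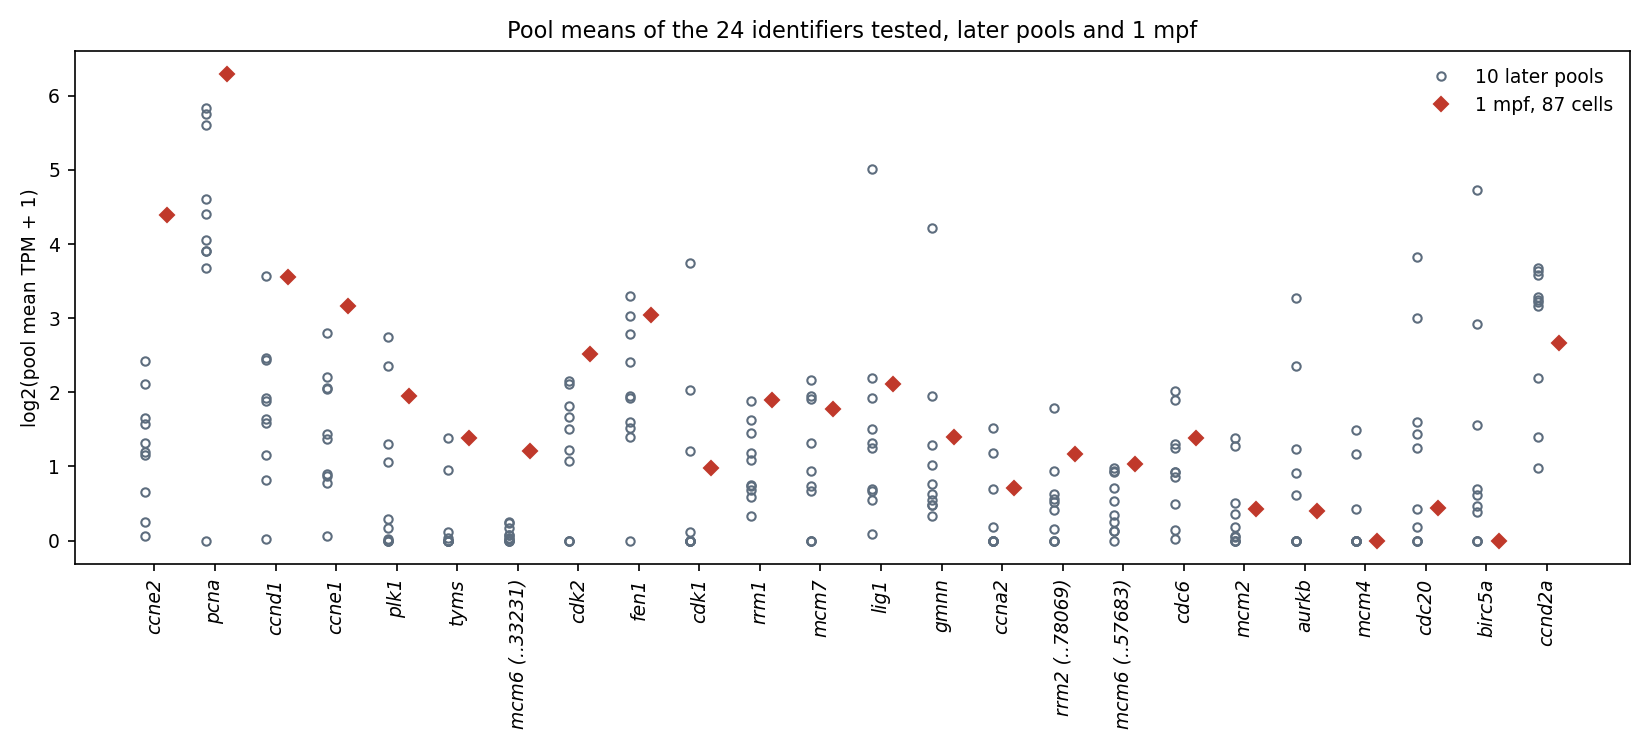
Pool means as log2(mean TPM + 1) (vertical axis) of the 24 identifiers tested on TPM. The 10 later pools are open circles left of the 1 mpf pool of 87 cells, a diamond. Identifiers are ordered by the gap on this scale between the 1 mpf mean and the median of the later pools. For ccne2 every later circle (at most 4.38 TPM) lies well under the 1 mpf diamond (19.96 TPM), while for cdc20, birc5a and aurkb some later circles lie far above it.

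The means of all 10 later pools lay below the 1 mpf pool for 8 of the 24 identifiers (26.7% of all genes tested), and above it for 0 (0.519%). Both mcm6 identifiers are among the 8 and passed the filter through the 1 mpf pools alone, so that they had to lie below. Besides pcna, ccne1, ccne2, cdk2 and the 2 mcm6 identifiers, these were rrm1, the large subunit of ribonucleotide reductase, and tyms, thymidylate synthase, which make the building blocks of DNA. Their levels are low: rrm1 had 0.261 to 2.67 TPM in the later pools, against 2.73 TPM at 1 mpf, and tyms 0 to 1.60 TPM against 1.61 TPM. The only mitotic cell of 1 mpf held 24.5% of its summed rrm1 and 66.7% of its tyms, which had reads in 2 of 87 cells. Over the other 1 mpf cells rrm1 averaged 2.09 TPM and tyms 0.544 TPM, both within the later range. For tyms 1 later pool reached 1 TPM, so that the 1 mpf deposits met the filter by themselves and lower later means were favored.

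Adult and Adolescent pools were compared with each other by the same edgeR test. Of 14128 genes, 0 were higher (0.0%) and 0 lower (0.0%) in Adult pools; 253 and 256 had an unadjusted p under 0.05, and DESeq2 called 10 (0.0708%) and 28 (0.198%). None of 24 identifiers was called by either tool, and the median log2 fold change was -0.75 over the list and -0.01 over all genes. The largest single value among those with an unadjusted p under 0.05 was that of mki67, the proliferation marker Ki-67, which averaged 0.186 TPM or less in the 3 Adult pools, against 0.0276, 0.374 and 2.24 TPM in the 3 Adolescent ones. Its log2 fold change was -5.57 (SE 1.99, unadjusted p = 0.0217, adjusted p = 1.00), and the groups overlapped. It was -8.97 without the 14 mpf pool and -3.84 without the 4 mpf pool, in which 3 cells held 91.5% of the summed mki67.

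The slope over log2 age in the 7 training pools called 0 of 18477 genes in either direction (0.0% each; 401 upward and 913 downward at an unadjusted p under 0.05), and 0 of 40 identifiers. ccne2 had a slope of -0.91 per doubling of age (SE 0.37, adjusted p = 0.617), which was -0.27 without the 1 mpf pool, and ccne1 one of -0.65 (SE 0.28, adjusted p = 0.677), while ccnd2a had 0.51 (SE 0.21, adjusted p = 0.632). The median slope was -0.62 over the list, against -0.02 over all genes. The list includes members with large errors, such as kif11 (-4.50, SE 2.85) and nusap1 (-3.98, SE 2.63). In the 4 mpf pool these 2 genes had reads only in the 3 mitotic cells described below. The median was thus not taken as a decline of the list with age.

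ccnd2a, a cyclin D2, showed no such order of age. It averaged 0.965 to 11.8 TPM in the later pools (median 8.39 TPM), against 5.34 TPM at 1 mpf, with reads in 6.52% to 31.53% of cells, against 21.8%, and thinned in 6.42% to 22.5%, against 13.8%. The later pools lay on both sides of 1 mpf. Of the partner kinases of the D cyclins, cdk4 had reads in 4 of 984 cells and cdk6 in 45 of them, with pool means of at most 0.357 TPM for cdk4 and 0.618 TPM for cdk6.

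Mitotic cells, with reads of 5 or more of the 10 genes, numbered 11 of 984 (1.12%, interval 0.559% to 1.99%). The count does not tell cells in mitosis from cells in replication, as 8 of the 11 also passed the count of replication identifiers given below. By pool the 11 were 1 of 87 cells at 1 mpf (1.15%, 0.0291% to 6.24%), 6 of 74 at 45 dpf (8.11%, 3.03% to 16.8%), 3 of 88 in the first 4 mpf pool (3.41%, 0.709% to 9.64%) and 1 of 60 at 14 mpf (1.67%, 0.0422% to 8.94%). None was found in the other pools, where a count of 0 allows (as 3 cells of the total) from 2.70% at 12 mpf, the largest pool, up to 23.1% in the C1 pool of 13 cells. The intervals of 45 dpf and 1 mpf overlap.

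The count ran from 9 to 15 with the way of counting. It was 15 with 3 or more genes, 13 with 4 or more, 11 at a level above 1 TPM, 9 above 10 TPM, and 11 after either thinning. Above 10 TPM the 14 mpf cell was lost, and 2 of the 3 cells of 4 mpf were left. With 4 or more genes 1 cell of the C1 pool was gained, and 45 dpf had 7 cells in place of 6. With 3 or more 1 cell of 3 mpf was gained as well, and the first 4 mpf pool had 4 cells. Most other cells held none of the 10 genes or 1 of them. At 45 dpf 56 of 74 cells had none and 9 had 1, and no cell of any pool had exactly 5.

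**Figure D3:**
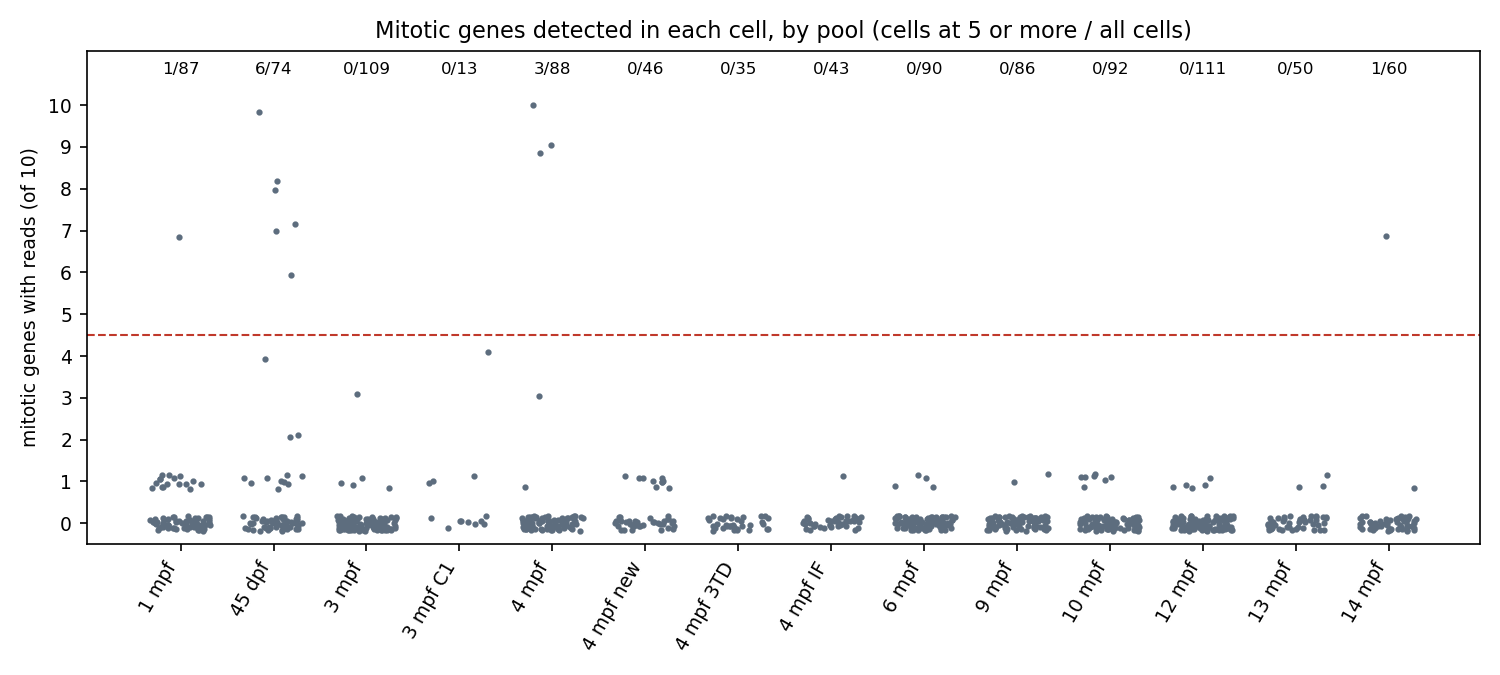
Number of the 10 mitotic genes with reads (vertical axis) in each cell, 1 point a cell, by pool in the order of age; the dashed line marks the bound of 5 genes, and the numbers above give mitotic cells of all cells. 11 cells lie above the line, 6 of them at 45 dpf and 3 in the first 4 mpf pool.

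Some mitotic cells carried much mRNA of another islet hormone, although they were sorted as beta-cells. In the 1 mpf cell glucagon genes took 20.95% of the TPM and insulin 40.1%, in the 45 dpf cell 5 glucagon took 34.5% and insulin 21.2%, and in the 14 mpf cell somatostatin took 38.04% and insulin 25.02%. In the other 8 cells glucagon and somatostatin together stayed at or under 1728 TPM. Cells in which these hormones took 10% of the TPM or more numbered 53 of 984. Without them, an alternative chosen after seeing the data, 8 of 931 cells were mitotic, 5 at 45 dpf and 3 at 4 mpf, and 0 at 1 mpf and at 14 mpf. Markers of leukocytes, endothelium and erythrocytes were at 0 in all 11 cells. Acinar and fibroblast markers had reads only in the 1 mpf cell, with 45.8 and 23.1 TPM in sum. Ductal markers had 72.8 TPM in the 1 mpf cell, 25.9 TPM in the 45 dpf cell 4 and 95.5 TPM in the 45 dpf cell 5. The epsilon-cell marker ghrl had 290 TPM in the 14 mpf cell, 62.3 TPM in the 45 dpf cell 4, 44.7 TPM in the 1 mpf cell and 2.45 TPM in the 45 dpf cell 1.

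The mitotic cells of 45 dpf and of 4 mpf held different parts of the program, though whether the 3 cells of 4 mpf are independent of one another was not tested (below). Each 45 dpf cell had reads of 7 to 13 of the 17 mitotic members and 8 to 13 of the 15 replication identifiers (pcna, mcm2 to mcm7, cdc6, rrm1, rrm2, tyms, fen1 and lig1), while the 4 mpf cells had 14, 17 and 15 of the mitotic members, and only 1, 3 and 3 of the replication identifiers. The 1 mpf cell had 10 and 10, and the 14 mpf cell 7 and 14. The same split was seen in genes outside the list: of 38 further replication genes the 45 dpf cells had 21 to 36, and the 4 mpf cells 3 to 8; of 44 further mitosis genes the 45 dpf cells had 19 to 34, and the 4 mpf cells 32 to 41.

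Some named genes show the contrast. pcna stood at 181.7 to 3081 TPM in the 45 dpf mitotic cells and at 2327 TPM in the 14 mpf cell, but at 0, 111.2 and 2.21 TPM in the 3 cells of 4 mpf. fen1, the nuclease that trims Okazaki fragments, and lig1, the ligase that joins them, had reads in all 6 cells of 45 dpf and in none of 4 mpf. In reverse, cdc20, the activator of the anaphase-promoting complex, had 7.74, 487 and 36.2 TPM in the 4 mpf cells and was at 0 in 5 of the 6 cells of 45 dpf. Not every replication identifier split this way. Of the 6 cells of 45 dpf, mcm2 had reads in 0, cdc6 in 1, and mcm3 and mcm5 in 2 each, while rrm1 had reads in 2 of the 3 cells of 4 mpf.

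Members that act in the late cycle filled the 4 mpf cells. Cell 2 of this pool held 979 TPM of cdk1, the kinase of mitotic entry, 390 TPM of top2a, the topoisomerase that untangles chromosomes, and 348 TPM of ccnb1, the mitotic cyclin B1. It also had 340 TPM of plk1, the Polo kinase, 285 TPM of aurkb and 130.8 TPM of birc5a, the kinase and the survivin subunit of the chromosomal passenger complex, and 100 TPM of their partner cdca8, which codes for Borealin. The spindle genes were high there as well, with 237 TPM of kif11, 183.7 TPM of nusap1, which binds spindle microtubules, 173.5 TPM of tpx2, the activator of Aurora A, and 68.8 TPM of kif23, a motor of the midzone. aurka, Aurora A itself, had 54.04 TPM and ccnb2, a B cyclin, 5.11 TPM.

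**Figure D4:**
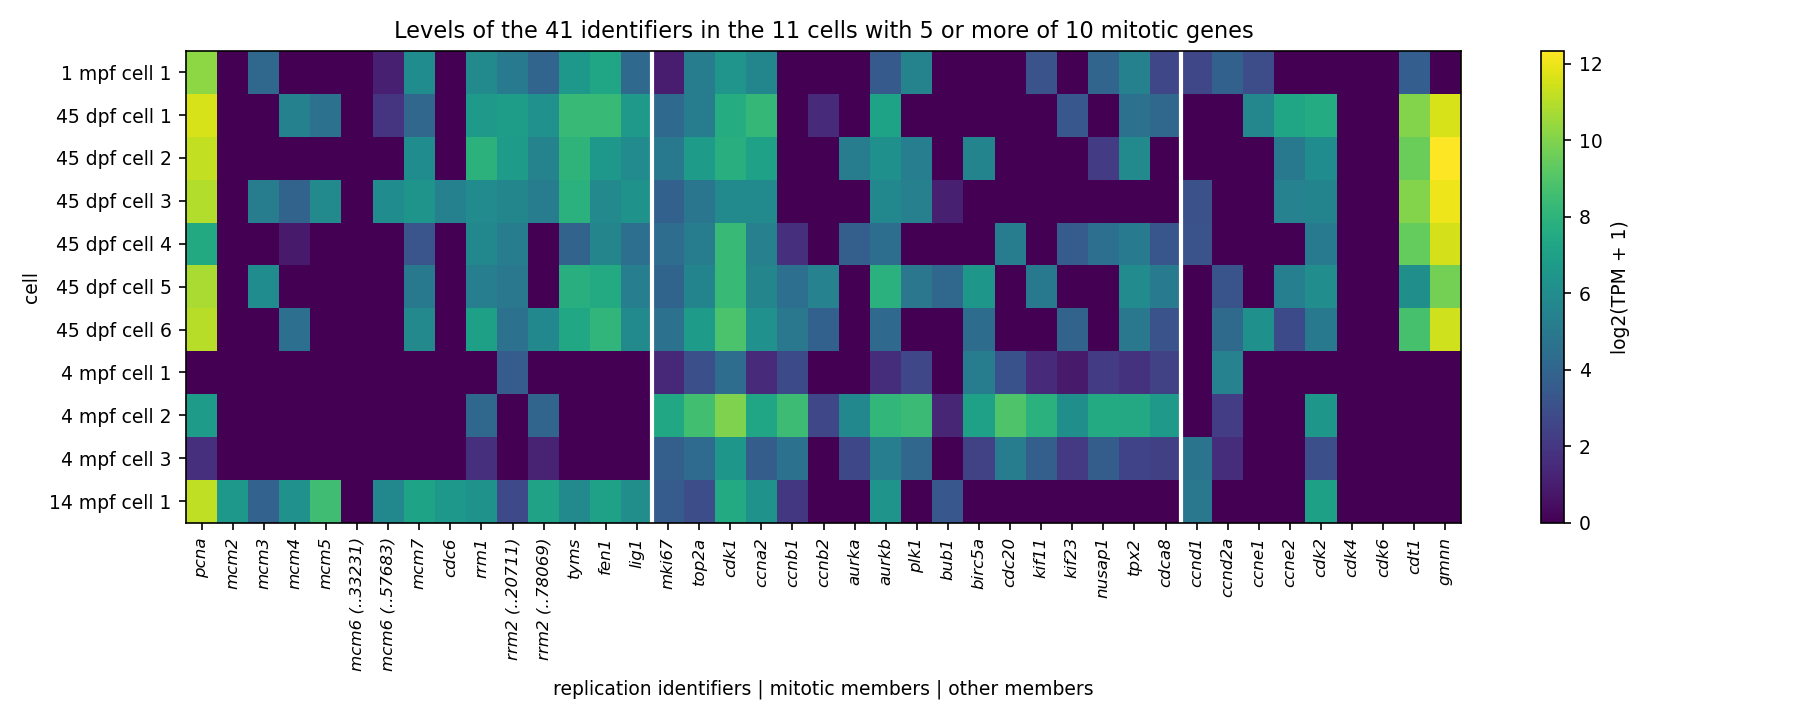
Levels as log2(TPM + 1) (color) of the 41 identifiers (horizontal axis, as replication identifiers, mitotic members and other members) in the 11 mitotic cells, 1 line a cell in the order of age. The 4 mpf cells are dark over the 15 replication identifiers (1 to 3 with reads) and lit over the 17 mitotic members (14 to 17), whereas the 45 dpf cells are lit in both blocks and in cdt1 and gmnn.

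The 3 mitotic cells of 4 mpf were not alike in level. Over the mitotic members read in both, cell 1 was below cell 2 in 14 of 14, at a median of 1.56% of its level (0.736% to 26.7%), and cell 3 was below cell 2 in 15 of 15, at a median of 6.35% (2.69% to 13.1%). Of the genes that were rare in the pool (reads in at most 4 other cells) and stood at 50 TPM or more in cell 2, 92.1% had reads in cell 3 and 58.4% in cell 1, against at most 16.8% in any further cell. Of the 63 among these on no cell-cycle list, 55 had reads in cell 3 and 27 in cell 1, and at most 10 in each of the other 85 cells (median 0). The column numbers of the cells were 52, 53 and 60. Whether RNA or reads of cell 2 entered the libraries of the others was not tested. Without cells 1 and 3, an alternative chosen after seeing the data, 9 of 982 cells were mitotic.

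No such one-sided ratio was seen at 45 dpf. There, cells 1 and 2 have neighboring column numbers, as do cells 3 and 4, and the median ratio of shared mitotic members was 73.5% and 77.1% in these pairs. cdk1 ran at 58.5 to 467 TPM in the 6 cells, top2a at 27.5 to 113.3 TPM, ccna2, the cyclin of S and G2 phase, at 40.8 to 296 TPM and aurkb at 17.5 to 233 TPM. All 6 had reads of these 4 genes and of mki67 (13.1 to 31.1 TPM). bub1 had reads in 2 of them.

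Pool means of the mitotic members came largely from the mitotic cells at 4 mpf and 45 dpf, though not at 1 mpf. In the first 4 mpf pool the 3 mitotic cells held 86.2% to 100% (median 100%) of the summed TPM of each of the 17 members, and at 45 dpf the 6 cells held 36.7% to 100% (median 100%). The cells were found by reads of 10 of these 17; of the 7 members not used for that, they held 86.2% to 100% at 4 mpf and 65.99% to 100% at 45 dpf. At 1 mpf the mitotic cell held 0% to 100% (median 30.1%) of the 14 members with reads. The 4 mpf pool had the highest mean among the 10 later pools for kif11 (2.85 TPM), kif23 (0.828 TPM), nusap1 (2.26 TPM), aurka (0.763 TPM) and top2a (4.74 TPM), each of which was at 0 in at least 5 of the 10 pools. The C1 pool had the highest cdc20 (13.1 TPM), birc5a (25.4 TPM) and aurkb (8.62 TPM) through 1 of its 13 cells, which had 4 of the 10 genes.

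Cells with reads of replication identifiers were counted in the same manner, in an alternative chosen after seeing the data. Like the mitotic count, this one names no phase of the cycle. Reads of 5 or more of the 15 replication identifiers were found in 17 of 984 cells: 2 at 1 mpf, 11 at 45 dpf, and 1 each at 3, 4, 13 and 14 mpf. Of the 17, 8 were also mitotic and 5 were rich in glucagon or somatostatin mRNA. The 4 mpf cell of this kind had 14 of the 15 identifiers and 2739 TPM of pcna, with no reads of cdk1, and was none of the 3 mitotic cells. The 13 mpf cell had 9 identifiers, with pcna at 16.4 TPM.

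The helicase genes mcm2 to mcm7, and cdc6, were read in few cells, from 12 of 984 for mcm4 to 41 of 984 for mcm7. How many of these cells passed the replication count was not counted gene by gene. mcm2, mcm3, mcm4 and mcm5 were at or under 0.337 TPM at 1 mpf and at 3.73 to 8.99 TPM at 45 dpf. In 4 of the 10 later pools or fewer did mcm7 exceed 1 TPM. Within the 45 dpf pool mcm2 had no reads in the mitotic cells, so that its mean of 6.499 TPM came from 8 other cells, while 97.9% of rrm2 ENSDARG00000020711, the small subunit of ribonucleotide reductase, and 90.7% of tyms came from the mitotic cells. cdc6, which loads the helicase, had 12.2% there. Between the 2 rrm2 identifiers, as for mcm6, the division of reads is uncertain.

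The 45 dpf pool differed from every other in cdt1, which loads the helicase on origins, and gmnn, which codes for geminin, the inhibitor of Cdt1. gmnn had reads in 74 of 74 cells with a mean of 4182 TPM (median 4300), and cdt1 in 71 of 74 with a mean of 676 TPM (median 687). gmnn exceeded 1000 TPM in 71 cells and cdt1 exceeded 100 TPM in 69 cells of this pool, and in 0 of the 910 others, whose highest values were 114.1 and 76.5 TPM. By mean level gmnn ranked 9 among all genes at 45 dpf. The median cell held 5258.5 reads of gmnn and 990.5 of cdt1, so that the values do not rest on single reads.

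Neither gene followed the other members at 45 dpf. The mitotic cells held 6.16% of the summed gmnn and 8.16% of the summed cdt1, and they were 6 of 74 cells. The level of gmnn was 6.44 times that of cdt1 in the median cell with both. Fluorescent cell-cycle reporters (FUCCI) are fusions to parts of Cdt1 and Geminin, and the study's methods list beta-cell lines that carry them, whereas the labels give Tg(ins:BB1.0L) for these cells. Gene totals cannot tell a transgene from the native gene, and whether these fish carried such a reporter was not tested.

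**Figure D5:**
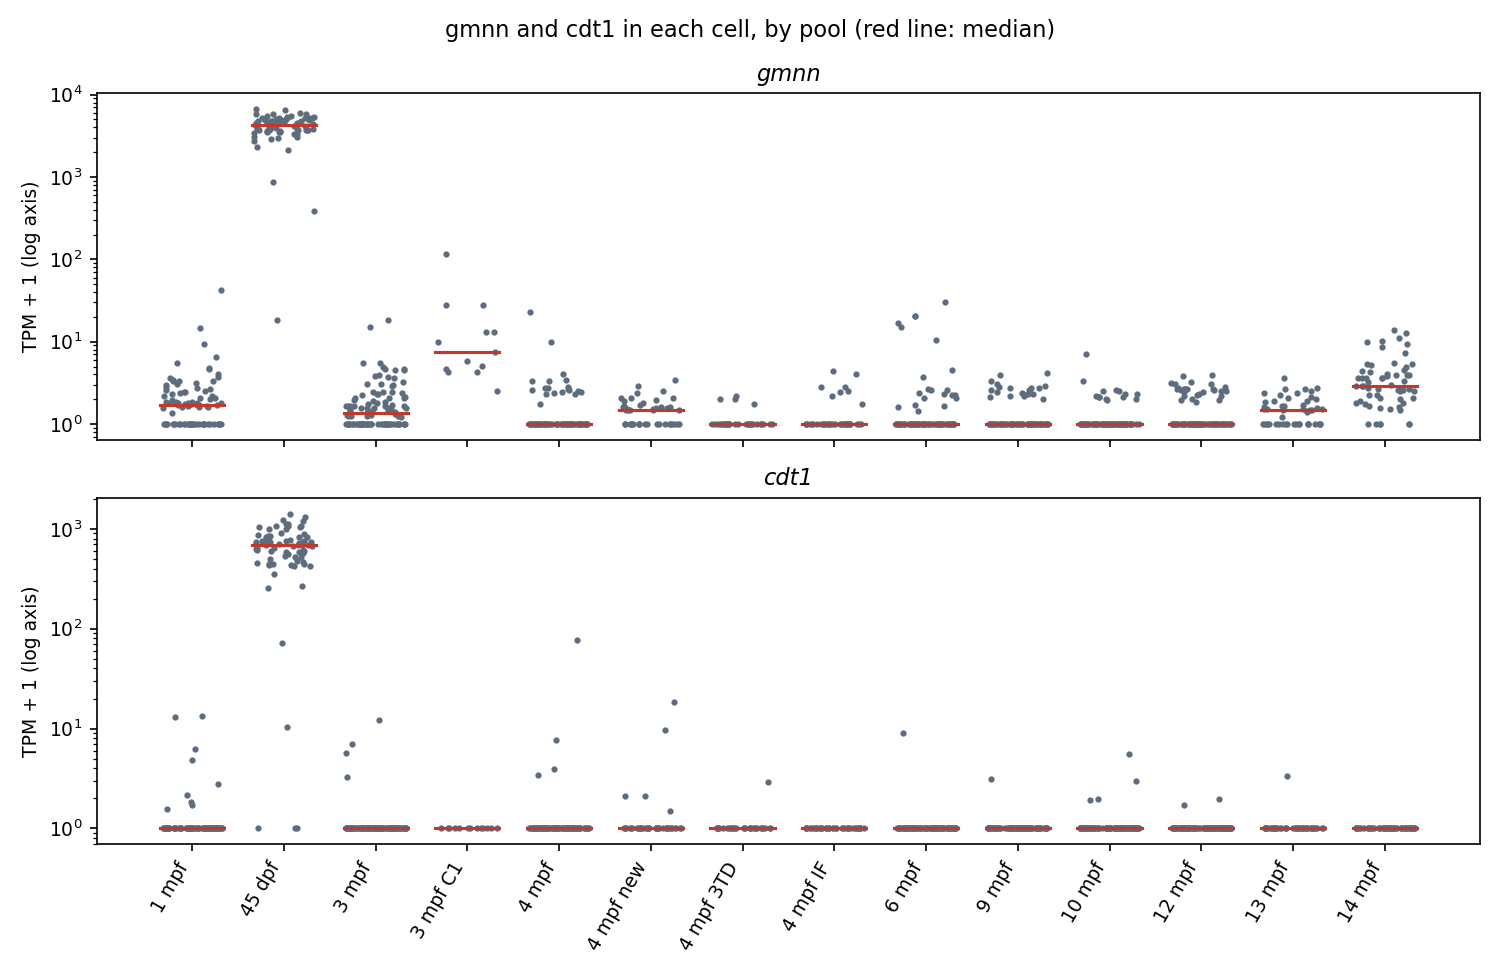
TPM + 1 (vertical log axis) of gmnn and cdt1 in each cell, 1 point a cell, by pool in the order of age, with the median as a red line. The 45 dpf cells form a band of their own, with medians of 4300 TPM for gmnn and 687 TPM for cdt1, above every other cell (at most 114.1 and 76.5 TPM) but for a few of their own pool.

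In the other pools gmnn was read widely at a very low level. Its share of cells was 63.2% at 1 mpf, 15.2% at 10 mpf, 90% at 14 mpf and 100% in the C1 pool, where the median cell held 13 reads, while in each other pool but 14 mpf (3 reads) cells with any had a median of 1 or 2. Thinned, the shares were 9.20% at 1 mpf, 2.17% at 10 mpf, 25% at 14 mpf and 46.2% in the C1 pool. The 2 sets of 3 mpf, parted by their column names, had 74.3% in the first and 22.9% in the other. No order of age was read from these shares, since they differed between sets of 1 age as widely as between ages. Outside 45 dpf cdt1 averaged 1.01 TPM or less in every pool.

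Feeding was varied at 4 mpf in 1 pool each, with 35 cells under 3TD and 43 under IF. pcna had reads in 1 of 35 cells (2.86%, interval 0.0723% to 14.9%) under 3TD, against 8 of 43 (18.6%, 8.39% to 33.4%) under IF, and averaged 5.84 TPM against 41.7 TPM. ccnd2a had the opposite order, with reads in 14 of 35 cells (40%, 23.9% to 57.9%) under 3TD, against 6 of 43 (14.0%, 5.30% to 27.9%) under IF, and 10.9 TPM against 2.96 TPM. After thinning, the ccnd2a shares were 20% under 3TD and 9.52% under IF, and those of pcna 2.86% and 16.7%. For each gene the 2 intervals overlap.

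None of the cells of either diet was mitotic, which allows (as 3 cells of the total) up to 8.57% under 3TD and 6.98% under IF. ccnd1 and ccne2 had no reads under either, and ccne1 was read in 2 of 35 cells under 3TD, against 1 of 43 under IF. fen1 and cdc6 had 0 TPM under 3TD, against 6.13 and 3.08 TPM under IF, from 2 cells and 1 cell. Of the 6 identifiers with 1 TPM or more in either pool, 4 were lower under 3TD, where 69.6% of all genes were lower, at a median log2 difference of -1.93 against -0.61 over all genes. Without a second pool for either diet, diet and pool cannot be told apart, and there is no test.

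Further genes of the cycle were taken from 5 lists. In the limma fit with both 1 mpf deposits, 1 of 7 genes of the inhibitor and pocket protein list was lower (median log2 fold change -0.74, over all genes -0.61), 1 of 14 further cyclins and kinases (-0.78), 2 of 21 further mitosis genes (0.21), 0 of 9 E2F and DREAM regulators (-0.66) and 0 of 27 further replication genes (-0.59); 0 were higher in each. Over all genes this fit called 3.72% lower and 0.0439% higher. The edgeR fit called 0 genes of each list. The lower ones were ccng1, wee1, ndc80 and cdkn1a, which codes for the inhibitor p21. ccng1, the p53-responsive cyclin G1, had 88.8 to 858 TPM in the later pools, against 1670 TPM at 1 mpf. Its log2 fold change was -2.82 (SE 0.60, adjusted p = 0.0134 by limma). wee1, the kinase that restrains Cdk1, stood at -2.21 (adjusted p = 0.0243 by limma), and ndc80, of the outer kinetochore, at -1.13 (adjusted p = 0.0405 by limma). The 1 mpf deposits, at 1.22 and 1.70 TPM of ndc80, met the filter by themselves, while no later pool exceeded 1.001 TPM (median 0.0242). Lower later means were thus favored by the filter, and the p-value of ndc80 carries little weight.

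cdkn1a was at 0.0170 to 86.5 TPM in the later pools (median 2.08 TPM), against 79.5 TPM at 1 mpf, so that the groups overlapped. Its log2 fold change was -4.27 (SE 1.15, adjusted p = 0.0476 by limma), and the call was lost in 11 of 17 other settings of this fit. All 17 keep both 1 mpf deposits with their shared cells, and they count the fit without the C1 pool more than once. Among the same settings ndc80 kept its call in 8 of the 16 that tested it, and ccng1 in 17 of 17. Within these settings wee1 lost its call only with a pseudocount of 0.1 (adjusted p = 0.104 by limma). With each 1 mpf cell counted once the 4 calls were all lost. With the shared cells in 1 deposit only, ccng1 (adjusted p = 0.0165 by limma) and wee1 (0.0342) kept theirs, while cdkn1a (0.0505) and ndc80 (0.0762) did not. These p-values too are too small if the 57 and the 30 cells of 1 mpf came from 1 collection.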

How the data were processed

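Per the labels, the authors trimmed reads with Trim Galore, aligned them to GRCz10 with HISAT2 and counted them on genes with HTSeq (versions not given in the sources used here); the paper names Smart-Seq2 and the labels SMART-Seq v4. The deposited raw counts cover the training ages, and the authors' TPM, scaled to 1000000 a cell, cover all cells. Reads of the other cohorts were recovered through gene lengths, of which 22948 could be derived; 100% of values came out whole within 0.02. These recovered reads served for depth, thinning, the comparison of the cells deposited again and the reads per cell of gmnn and cdt1. They entered no edgeR, DESeq2 or limma fit.

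Symbols were found for 26193 identifiers. Counts summed by pool were tested with edgeR 4.0.16 (TMM, filterByExpr), with DESeq2 1.42.0 as an alternative, and pool means as log2(TPM + 1) with limma 3.58.1 (trend; genes with 1 TPM or more in 2 pools), at an adjusted p under 0.05. Where 1 mpf is 1 pool, it was assumed to vary like the others. Nothing says whether pools of 1 group are independent beyond their fish and dates, so p-values measure the spread between these pools. On simulated data with 200 changed genes, edgeR recovered 82.5% in the comparison with 1 mpf, 99.5% between Adult and Adolescent and 84.0% for the slope, and limma 97.5%. False calls numbered 6, 11, 3 and 10 in the same order. No rate was taken for genes as rarely read as most of the list, so a lack of calls among them does not show a lack of change. All genes of the list are named; of the 5 further lists, those past the threshold. Members and lists were chosen with earlier results of these data known. Alternatives were other tests, filters, pseudocounts, depths and sets of pools or cells. No sequences were used here.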

Additional observations from a re-analysis of the deposited data

Results flagged for a closer look

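In the 10 later pools, 20 of the 41 identifiers had a pool mean far from the other 9 (a gap of more than 0.47 of the whole range). Chance sets apart about 1 in 20 groups of normally distributed values. Most of these means come from 1 to 3 cells, so that rate need not hold here. How many of all genes pass the bound was not counted, so the number is not read as a trait of the list. The first 4 mpf pool stood apart as the highest in 11 of them, with mean TPM of 2.24 for mki67, 4.74 for top2a, 4.28 for ccnb1, 2.13 for mcm3, 0.763 for aurka, 0.342 for rrm2 ENSDARG00000020711, 2.85 for kif11, 0.828 for kif23, 2.26 for nusap1, 2.07 for tpx2 and 1.23 for cdca8. The 14 mpf pool was highest in mcm5 (6.31 TPM), bub1 (0.157 TPM) and rrm2 ENSDARG00000078069 (2.44 TPM). The C1 pool of 13 cells was highest in cdk6 (0.618 TPM), gmnn (17.6 TPM) and lig1 (31.1 TPM), and lowest in pcna (0 TPM). The 6 mpf pool was highest in cdk4 (0.357 TPM) and the 13 mpf pool in ccnb2 (0.914 TPM).

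The 45 dpf pool entered no test, and there gmnn averaged 4182 TPM and cdt1 676 TPM, against at most 17.6 and 1.01 TPM in any other pool.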

How the results depend on the processing

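None of the list was called in the edgeR comparisons, under any alternative run. Among all genes tested, DESeq2 called 0.974% higher and 0.2002% lower in later pools than at 1 mpf, and 0.0708% higher and 0.198% lower in Adult than Adolescent pools, against 0% and 0.0162%, and 0% and 0%, by edgeR. Leaving out 1 pool gave 0% to 0.0329% of genes lower than at 1 mpf and 0% to 0.00546% for the slope over age, which had 0.0392% lower without the filter. In the limma fit, genes higher and lower were 0.259% and 10.6% without the C1 pool, 0.132% and 46.6% (with 11 of the list lower) when log2(TPM + 1) was averaged over cells, and 0.0731% and 1.14% with a pseudocount of 0.1 (1 of the list lower), where ccne2 had an adjusted p of 0.111. Genes lower were 5.77% without the filter, 2.42% with the shared cells in 1 deposit (1 of the list) and 0.142%, with 0% higher and 0 of the list, with 1 mpf cells counted once. Leaving out 1 pool gave 0% to 0.259% of genes higher, 0.0828% to 10.6% lower and 0 to 3 of the list lower, the lowest (0.0828% without the first 1 mpf pool, 0.157% without the new one) coming with 1 pool at 1 mpf. The cause of these shifts was not tested.

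The mitotic share at 1 mpf was 0% without hormone-rich cells, and at 14 mpf it was 0% without them and also above 10 TPM. The pcna share at 1 mpf was 59.8% thinned to 20000 reads. For 3TD against IF, averaging log2(TPM + 1) over cells gave 0.996 for ccnd2a and -1.08 for pcna, in place of 1.59 and -2.64. With the collection as a block (12 and 13 mpf only) 0.388% of genes were higher and 6.56% lower in the limma fit. No paired analysis was possible because the replicate numbers name single cells and pair no pools; for the other ages no block was fitted, since the column names do not tie the sets of 3 and 6 mpf to their dates. Depth limits the shares, since a gene at 1 to 3 reads in a cell can be missed.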
